A study of Saccharomyces cerevisiae with 16 samples.

Results

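The mitochondrial ribosomal protein genes of Saccharomyces cerevisiae were followed in grande and petite yeast exposed to 4-methylcyclohexane methanol (MCHM), an alcohol used to clean coal. The set was the nuclear genes of the MRPL, MRPS and MRP families named by identifier in the table of read counts. It held 47 of the 6717 genes in that table. The large subunit of the ribosome accounted for 36 of them and the small subunit for 11. A counterpart in bacterial ribosomes is known for 32 of the proteins, and 15 have none.

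Mitochondria carry their own ribosomes, which make the few proteins encoded by mitochondrial DNA. In yeast these are core subunits of the respiratory chain and of ATP synthase and 1 ribosomal protein, Var1. All other proteins of this ribosome are encoded in the nucleus, made in the cytosol and imported. Petite yeast that have lost the mitochondrial DNA have no mitochondrial messages left to translate and no gene for Var1. They keep the nuclear genes for the other proteins of the ribosome.

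Grande yeast were the strain S96, which is in the S288c background and carries a lys5 mutation. Petite yeast were derived from S96 with ethidium bromide, which makes cells lose mitochondrial DNA, so the petite libraries come from 1 derived strain. Both were grown in YPD, a rich medium, or YM, a minimal medium that was supplemented with lysine for S96 strains. Each culture was split, and 1 part was kept without MCHM while the other received 0.055% (v:v) MCHM, which is 550 ppm. The labels of the samples give the exposure as 2.5 h, while the study's text gives a shorter time for these libraries. This gives 8 groups of 2 libraries, grande or petite, YPD or YM, without or with MCHM, and 16 libraries in all. Libraries were paired-end and not stranded. The libraries of each group came from separate cultures.

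The stretch of the mRNA just after the stop codon is shown because it was shared by every member. Puf3 is a yeast RNA-binding protein known to bind the ends of mRNAs for mitochondrial proteins, among them those of the mitochondrial ribosome. Its core motif, TGTANATA, was searched in the 200 bases after the stop codon on the coding strand of the R64 genome (RefSeq). All 47 members (100%) held at least 1 copy, against 827 of 5657 tested protein-coding genes (14.6%). The 20 bases around the motif are printed 5′ to 3′, with the motif in capitals. They are given for the 7 members whose levels passed the main edgeR test below, fitted without a replicate block. Also given are MRPL39, the member with the highest level, and MRPL3, which has the only copy with G at the open position.
MRP20 (YDR405W): cacactTGTATATAcggagc
MRPL8 (YJL063C): ttccctTGTAAATAtataga
MRPL13 (YKR006C): atatccTGTACATAtatata
MRPL17 (YNL252C): atcacaTGTAAATAtcatta
MRPL35 (YDR322W): gtatccTGTACATAtaaaat
MRPL37 (YBR268W): tatcctTGTAAATAaatatg
MRPL50 (YNR022C): caatctTGTATATAggcaac
MRPL39 (YML009C): ttatccTGTAAATAagtaat
MRPL3 (YMR024W): ccatttTGTAGATAgagaac

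These stretches lie at chrIV:1278504-1278523 on the + strand for MRP20, chrX:315719-315738 on the - strand for MRPL8, chrXI:450363-450382 on the - strand for MRPL13 and chrXIV:171339-171358 on the - strand for MRPL17. They lie at chrIV:1111715-1111734 (+) for MRPL35, chrII:741643-741662 (+) for MRPL37, chrXIV:669724-669743 (-) for MRPL50, chrXIII:251212-251231 (-) for MRPL39 and chrXIII:323059-323078 (+) for MRPL3. All are downstream of the coding sequence. Over the 47 members there were 58 copies in the 200 bases, with 36 members holding 1 copy and 11 holding 2. The letter at the open position was A in 26 copies, T in 18, C in 13 and G in 1. The copy nearest to the stop codon began between 8 and 139 bases after it, with a median of 54 bases, and 38 members had a C placed 2 bases before a copy. Most of the stretches above show this C.

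**Figure D1:**
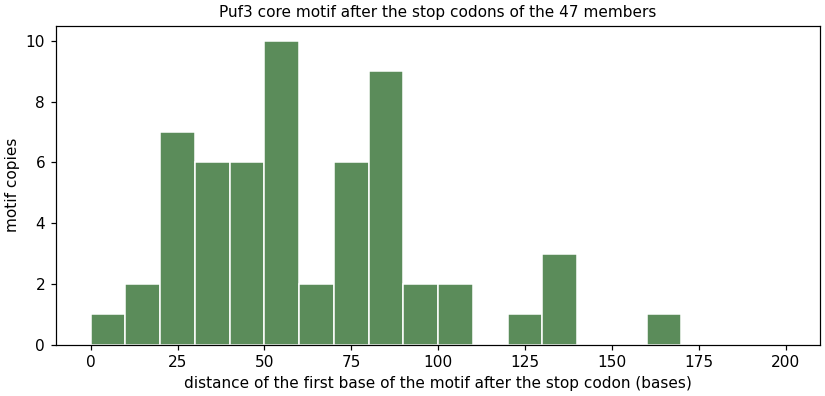
Number of copies of the Puf3 core motif TGTANATA in bins of 10 bases, by the distance in bases of the motif's first base from the stop codon, for the 58 copies of the 47 members. Copies crowd into the first 100 bases, where 42 of the 47 members have at least 1.

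In a window of 100 bases, 42 of 47 members (89.4%) held the motif, against 10.6% of the tested genes. A list of 30 other proteins of the mitochondrial ribosome held it in 29 (96.7%), and a list of 30 mitochondrial translation factors and tRNA synthetases in 25 (83.3%). Nuclear genes of the respiratory chain and ATP synthase held it in 5 of 35 (14.3%) and cytosolic ribosomal protein genes in 6 of 138 (4.35%). The motif was therefore common to genes of mitochondrial translation and not to those of respiration or of the cytosolic ribosome. A match describes letters and is no evidence of binding in these yeast. In the promoters, taken as 250 bases before to 50 bases after the start of the coding sequence and searched on both strands, CCAAT, the core letters bound by the Hap complex that regulates respiratory genes, occurred in 17 of 47 members (36.2%) and 43.9% of all genes. The letters AATTTT occurred in 20 of 47 members (42.6%) and 52.7% of all genes. Neither was more frequent in the members.

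All 47 members passed the filter on low counts and were tested, together with 5856 genes in all. Levels are given as CPM (counts scaled to a library of 1000000), scaled by TMM factors, and where genes are compared with each other as CPM per kb of coding sequence averaged over the 16 libraries. The median member was at 53.7 CPM per kb, with a range of 6.15 to 142, against a median of 38.6 for 5657 tested protein-coding genes. The members were thus moderately expressed, and short, with a median coding length of 714 bases against 1230. MRPL39 (bacterial counterpart L33) had the highest level, 142 CPM per kb, followed by MRPL23 (YOR150W, L13) at 125 and MRPL36 (YBR122C, L31) at 113. MRPL38 (YKL170W, L14) had the lowest, 6.15, followed by MRPL51 (YPR100W) at 6.77 and MRPL24 (YMR193W, L28) at 23.8. Large and small subunit members had similar medians, 54.5 and 51.2 CPM per kb.

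MRPL38 and MRPL51 stood apart from the rest. MRPL38 had between 1 and 43 counts in a library and MRPL51 between 0 and 34. Each group holds 1 library from a lower and 1 from a higher series of culture numbers, and MRPL38 was lower in the lower series in 8 of 8 groups, by a mean of 1.94 on the log2 scale. MRPL51 was lower there in 7 of 8 groups, by a mean of 1.78. MRPL19 showed the same order in 7 groups, by 0.63, and MRPL4 and MRP4 in all 8, by 0.36 and 0.27. Among genes of the RefSeq annotation, the coding bases of 3 members overlap those of a neighbour, and their counts are uncertain. MRPL51 shares 323 of its 423 coding bases with YPR099C on the other strand. MRPL19 shares 113 bases with YNL184C on the same strand, and MRP4 shares 2 bases with YHL005C. Reading frames that RefSeq leaves out were not checked, so further overlaps, also of MRPL38, were not looked for. Values for MRPL38 and MRPL51 are not used below as examples, and leaving both out moved the members' median by at most 0.03 in any comparison.

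Libraries held 2015485 to 5694566 counts (median 3662481). In the whole table, 2.36% to 11.6% of genes passed the test for MCHM in 3 of the 4 pairs of groups and 0.546% in petite yeast in YM. The 8 genes encoded by mitochondrial DNA had 0 counts in all 8 petite libraries, which allows at most 0.000134% of a library by a floor of 3 counts, for counting error only. A grande library held only 0 to 8 such counts, so this check separates the strains poorly. Variation between the libraries of a group was large, with a common coefficient of variation of 29.5%. That fit had group means only, so the figure includes differences between the lower and higher series of cultures. In counts simulated for petite against grande yeast in YM without MCHM, 69 of 100 genes changed 4-fold were recovered but 10 of 100 changed 2-fold, among 5832 genes. A change of 2-fold was thus rarely called in that simulation. Only 200 genes were changed in it, while 848 of 5856 (14.5%) passed in the data. The adjustment was therefore stricter there, and the share found may be higher in the data. Depth, spread and the number of libraries were not separated.

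The members' summed level was higher in petite than in grande yeast in every pairing of medium and MCHM. Without MCHM in YPD it was 1557 and 1972 CPM in the grande libraries and 2191 and 2264 CPM in the petite libraries. In YPD with MCHM it was 1407 and 1517 CPM in grande and 2052 and 2294 CPM in petite yeast. In neither case did the strains overlap, and the gap was wider with MCHM. In YM with MCHM the sums were 1475 and 1485 CPM in grande and 1798 and 2135 CPM in petite yeast. In YM without MCHM they were 1413 and 1722 CPM in grande and 1579 and 1891 CPM in petite yeast, and there the strains overlapped. Group means in YPD were 1764 ± 293 CPM for grande and 2227 ± 51.8 CPM for petite yeast without MCHM, and 1462 ± 77.7 and 2173 ± 171 CPM with it (SD, n = 2). Those in YM were 1567 ± 218 and 1735 ± 220 CPM without MCHM, and 1480 ± 7.47 and 1967 ± 238 CPM with it (SD, n = 2). The sums are shares of each library, and RNA per cell was not measured.

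**Figure D2:**
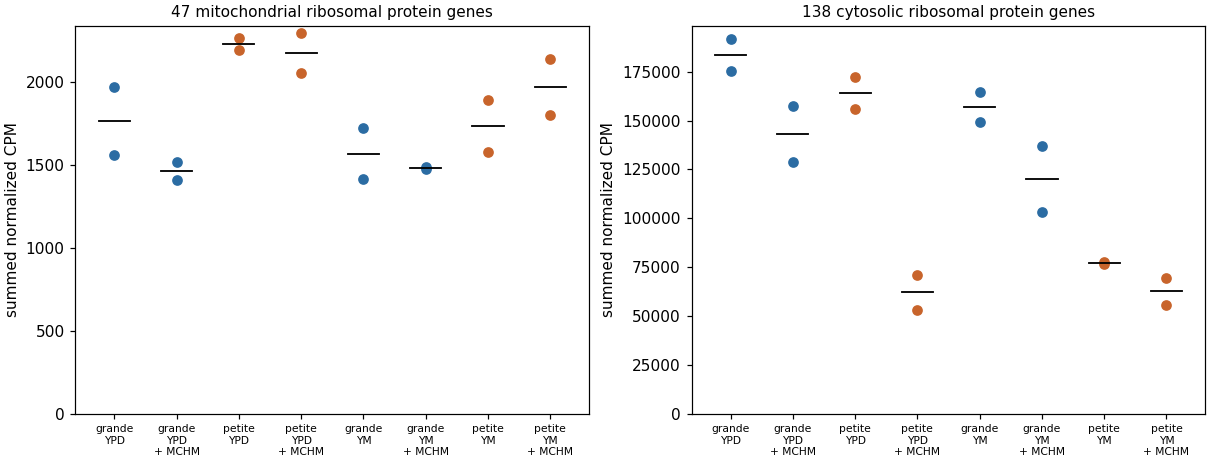
Summed normalized CPM (y axis, from 0) of the 47 members (left) and of 138 cytosolic ribosomal protein genes (right) in each of the 16 libraries, with points for libraries, lines for group means, blue for grande and orange for petite yeast. In YPD both petite points lie above both grande points for the members, with and without MCHM, while the cytosolic genes are lowest in petite yeast in YM and with MCHM.

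The members' median level also differed between the culture series. On the log2 scale it was 5.29 and 4.94 in the lower and higher library of grande yeast in YPD, and 4.94 and 4.66 in YM. Petite yeast had 5.56 and 5.27 in YPD, and 5.15 and 4.70 in YM. In all 4 groups without MCHM the lower library thus had the higher median. With MCHM the order held in grande yeast, with 4.78 and 4.71 in YPD and 4.87 and 4.73 in YM, and was turned in petite yeast, with 5.16 and 5.45 in YPD and 4.99 and 5.27 in YM.

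**Figure D3:**
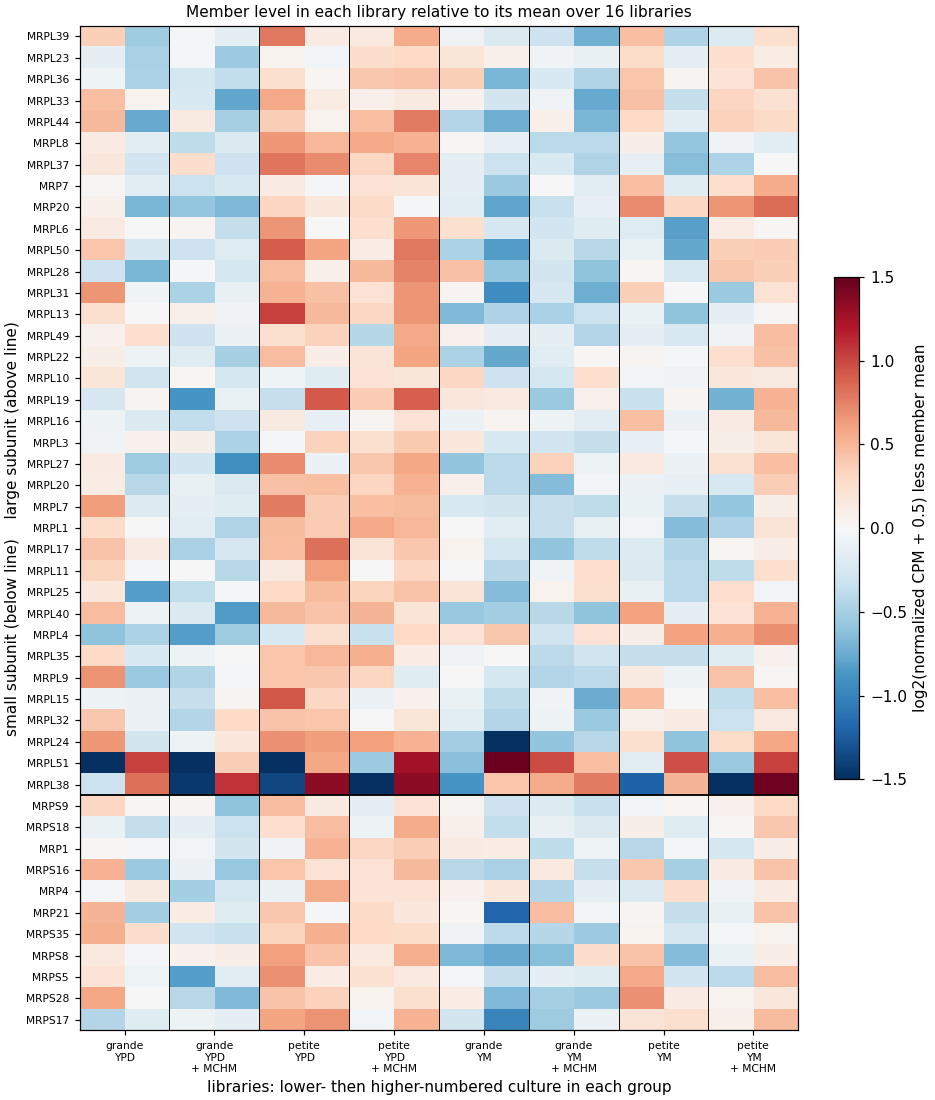
Level of each of the 47 members (rows, large subunit above the line, ordered by CPM per kb) in each of the 16 libraries (columns, lower- then higher-numbered culture per group), as log2(normalized CPM + 0.5) less the member's mean over the libraries; colours saturate at 1.5. Petite libraries in YPD are mostly red, grande libraries with MCHM and the higher-numbered grande library in YM mostly blue, and MRPL38 and MRPL51 follow the culture series.

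The comparison of petite with grande yeast asks how nuclear genes for the mitochondrial ribosome are expressed after loss of mitochondrial DNA. With MCHM in YPD, all 47 members had a positive log2 fold change, with a median of 0.58 (range 0.12 to 1.23), against a median of -0.02 over all genes, of which 47.8% were positive. In YPD without MCHM, 45 of 47 were positive, with a median of 0.30, against 0.00 over all genes and 50.4% positive. In YM with MCHM, 43 were positive, with a median of 0.39, against -0.01 and 49.2%. In YM without MCHM, 29 were positive, with a median of 0.13, against 0.07 and 53.6%. By these medians, the shift toward petite yeast was widest with MCHM and slight in YM without it. With 1 library left out, the median was between 0.50 and 0.69 in YPD with MCHM. It was between 0.24 and 0.55 in YM with MCHM and between 0.20 and 0.54 in YPD without it, so their order was not settled. In YM without MCHM the direction rested on single libraries. The median there was -0.04 without the lower-numbered petite library, -0.01 without the higher-numbered grande library and 0.27 without the higher-numbered petite library. Within the lower and the higher series of cultures, the members' median differed by 0.27 and 0.33 in YPD, and by 0.20 and 0.04 in untreated YM cultures. With MCHM it differed by 0.38 and 0.74 in YPD and by 0.12 and 0.54 in YM, so that all 8 values were positive.

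Counted by libraries that did not overlap, 39 of 47 members were higher in both petite than in both grande libraries in YPD with MCHM and 0 were lower, against 22.1% and 23.1% of all genes. The counts were 20 higher and 0 lower in YPD without MCHM (all genes 12.3% and 10.3%), 28 higher and 0 lower in YM with MCHM (all genes 28.3% and 28.3%), and 10 higher and 3 lower in YM without MCHM (all genes 30.1% and 26.2%). The share of members exceeded that of all genes in the first 3 and not in YM without MCHM.

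Single members rarely passed edgeR's quasi-likelihood test, with p-values adjusted by Benjamini-Hochberg over all 5856 genes. Here and below, the background is the share of all genes that passed the adjusted test. Counts at an unadjusted p are printed without the share of all genes and cannot be read against that background. Taken alone, they are no result about the members or the other lists. In YPD without MCHM 0 of 47 passed, nor did any other gene (background 0%), while DESeq2 called 7 genes. There 6 members were higher at an unadjusted p under 0.05, and DESeq2 called 0 members. In YPD with MCHM 0 passed (background 1.57%), with 18 higher at an unadjusted p under 0.05, and DESeq2 called 1, MRPL8. In YM with MCHM 0 passed (background 4.73%), with 9 higher unadjusted, and DESeq2 called 1, MRP20. In YM without MCHM 1 passed, higher in petite yeast (background 7.24% higher and 14.5% in either direction), with 6 higher and 0 lower unadjusted, and DESeq2 called the same number. With the lower and higher series of cultures as a replicate block, 2 members passed in YM without MCHM, MRP20 and MRPL40 (24.6% of all genes), 1 in YPD with MCHM, MRPL8 (3.86%), and 3 in YM with MCHM, MRP20, MRPL40 and MRPL4 (13.1%).

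The member that passed was MRP20, the counterpart of bacterial L23, a protein at the exit of the tunnel through which the new chain leaves the ribosome. In YM without MCHM it was at 44.6 and 28.7 CPM in grande and 82.3 and 62.2 CPM in petite yeast. The groups did not overlap, and the log2 fold change was 0.98 (SE 0.28, edgeR adjusted p = 0.038, n = 2). With MCHM in YM it was at 39.5 and 45.7 CPM in grande and 79.5 and 89.8 CPM in petite yeast, a log2 fold change of 0.99 (SE 0.28, edgeR adjusted p = 0.063). In YPD the levels were 52.5 and 31 CPM in grande and 62.4 and 55.6 CPM in petite yeast, and with MCHM 33.2 and 31.2 CPM against 61.2 and 49 CPM. MRP20 was thus above the grande libraries in petite yeast in each of the 4 pairings, by 0.51 and 0.77 on the log2 scale in YPD without and with MCHM, of which neither passed. Leaving out 1 library ended the call in YM without MCHM in 10 of 16 fits. Most of these left out a library outside the comparison, with a log2 fold change of 0.91 to 0.98, so the call was borderline. Without the higher-numbered grande library in YM the log2 fold change was 0.65. Without the lower- and the higher-numbered petite library in YM it was 0.76 and 1.17.

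A pair of members that did not pass are described as well. MRPL22 (YNL177C, L22) in YM without MCHM was at 36.5 and 29.7 CPM in grande and 52.7 and 50.6 CPM in petite yeast (log2 0.64, edgeR adjusted p = 0.072). MRPL8 (L17) in YPD with MCHM was at 41.6 and 46.7 CPM in grande and 81.1 and 78.0 CPM in petite yeast, without overlap (log2 0.85, SE 0.22, edgeR adjusted p = 0.104), the smallest adjusted p of the members there. These genes were picked for description after their values were seen.

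**Figure D4:**
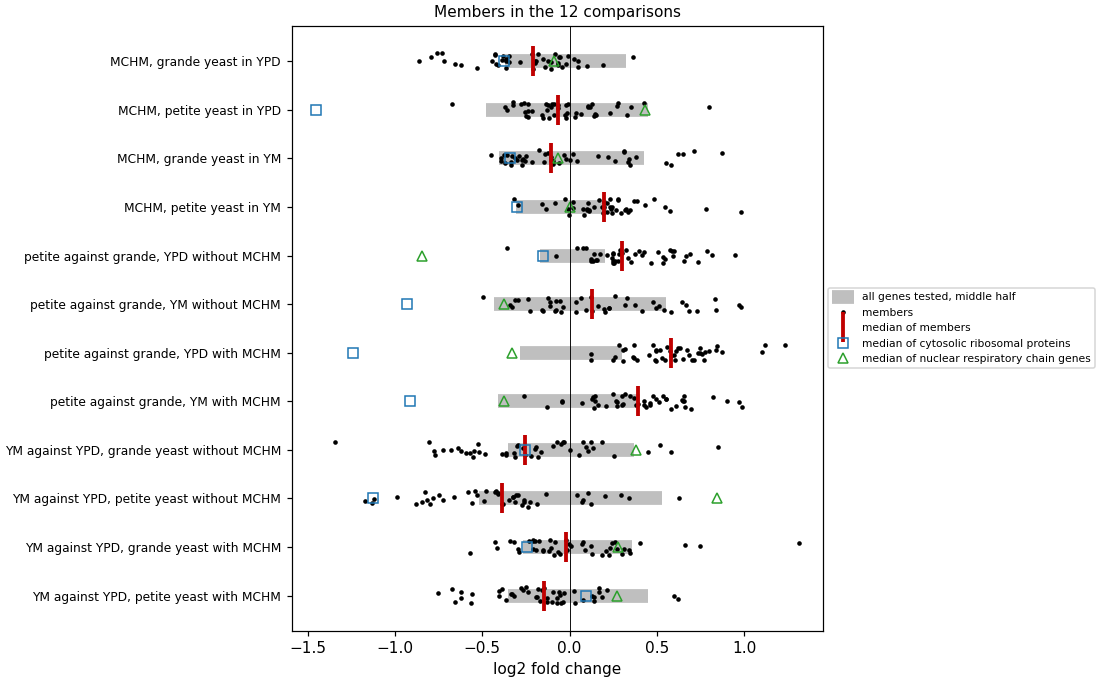
Log2 fold change (x axis) of the 47 members (black points), their median (red bar), the middle of all 5856 genes (grey, lower to upper quartile) and the medians of 137 cytosolic ribosomal protein genes (squares) and 35 nuclear respiratory chain genes (triangles) in the 12 comparisons. The members' medians are positive in the 4 petite against grande comparisons, where the medians of both other lists are negative.

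The other lists were set beside the members, with no test between lists. The 30 other proteins of the mitochondrial ribosome had medians for petite against grande yeast of 0.29 (YPD) and 0.31 (YM) in untreated cultures, and of 0.62 and 0.43 in treated ones. The medians of the 30 translation factors and tRNA synthetases, in the same order, were 0.23, 0.03, 0.43 and 0.39. The medians of both lists were positive, but that of the factors and synthetases in YM without MCHM was below the 0.07 of all genes. The 35 nuclear respiratory chain and ATP synthase genes, which build the complexes that petite yeast cannot complete, had medians of -0.84, -0.37, -0.33 and -0.38 in that order. In YPD without MCHM all 35 of these were negative while 45 of 47 members were positive, and 14 of the 35 were lower at an unadjusted p under 0.05, with 0 passing edgeR's adjusted test.

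Cytosolic ribosomal protein genes had negative medians. In YPD without MCHM the median was -0.15 and 0 of 137 tested genes passed, as in the whole table. With the other pairings, 64 were lower in petite yeast in YPD with MCHM (median -1.24), 70 in YM (median -0.93) and 47 in YM with MCHM (median -0.92) by edgeR's adjusted test. Their share of the counts of a library was between 6.04% and 19.1%, while the members' share was between 0.122% and 0.271%. The part of this class in the members' values was not tested. Without TMM scaling the median of all genes moved from 0.07 to 0.33 in YM without MCHM and from -0.01 to 0.31 in YM with MCHM, and the members' medians moved with it, to 0.39 and 0.74. Relative to all genes, the members' median was 0.06 in both scalings in YM without MCHM, and 0.40 and 0.43 with MCHM.

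The comparison of treated with untreated yeast asks how the members respond to MCHM. In the 4 comparisons 0 members passed edgeR's quasi-likelihood test, and DESeq2 called 0. In grande yeast in YPD, 6 of 47 members had a positive log2 fold change, with a median of -0.21 against -0.03 over all genes (46.9% positive), and the background of genes that passed was 2.36%. The members' median differed by -0.51 and -0.23 in the split cultures. Here 4 members were lower at an unadjusted p under 0.05 and 0 higher, and 15 were lower without overlap and 2 higher, against 22.7% and 21.9% of all genes. MRPS35 (YGR165W), a small subunit protein with no bacterial counterpart, had the smallest adjusted p. It was at 63.1 and 52.2 CPM without and 34.6 and 35.4 CPM with MCHM, a log2 fold change of -0.72 (SE 0.20, edgeR adjusted p = 0.091). It was named after its values were seen, and was the 1 member that passed with the series of cultures as a replicate block (edgeR adjusted p = 0.046, background 6.95%).

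In petite yeast in YPD the members stayed close to 0 with MCHM, with 17 of 47 positive (48.3% of all genes), a median of -0.07 and 0 at an unadjusted p under 0.05, while 11.6% of all genes passed. Without overlap, 7 members were higher and 8 lower (all genes 26.8% and 28.9%). The median differed by -0.40 and 0.18 in the split cultures, so the cultures went opposite ways. The median of all members was between -0.11 and 0.12 when 1 library was left out, with 0.12 without the lower-numbered treated petite library. In the same comparison 112 of 137 cytosolic ribosomal protein genes passed as lower, with a median of -1.45. The classes of ribosomal protein gene thus had very different values in the same libraries.

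In YM, 18 of 47 members were positive in grande yeast (50.1% of all genes), with a median of -0.10. The background of the adjusted test was 5.82%, and 1 member was higher at an unadjusted p under 0.05. Without overlap, 6 were higher and 13 lower (all genes 26.5% and 25.9%). The split cultures differed by -0.07 and 0.07. In petite yeast, 39 were positive (43.4% of all genes), with a median of 0.20 against -0.07 over all genes. The background of the adjusted test was 0.546%, and 1 member was higher at an unadjusted p under 0.05. Here 13 members were higher without overlap and 0 were lower, against 16.3% and 23.5% of all genes, but the split cultures differed by -0.15 and 0.57. The split cultures of petite yeast thus went opposite ways in YM as well.

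The comparison of YM with YPD was the one in which the most members passed. In petite yeast without MCHM, 6 of 47 members were lower in YM (background 8.97% lower and 19.4% in either direction) and 0 higher by edgeR's quasi-likelihood test, with 11 lower at an unadjusted p under 0.05. The median was -0.39 against -0.02 over all genes, and 9 of 47 were positive (48.6% of all genes). The share of 6 in 47 was near the background, and 24 members were lower without overlap and 1 higher, against 29.7% and 28.8% of all genes. The 6 were all of the large subunit, as were 36 of the 47 members. Of the 6, 4 have no bacterial counterpart, MRPL37, MRPL13, MRPL17 and MRPL35, against 15 of the 47. These shares were not tested. DESeq2 also called 6 members lower.

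MRPL50, the counterpart of bacterial L9, was at 47.6 and 38.0 CPM in YPD and 23.4 and 14.5 CPM in YM, a log2 fold change of -1.17 (SE 0.32, edgeR adjusted p = 0.025). MRPL37 was at 39.4 and 37.0 CPM in YPD and 20.6 and 14.3 CPM in YM, a log2 fold change of -1.13 (SE 0.30, edgeR adjusted p = 0.022). MRPL13 was at 93.2 and 64.4 CPM in YPD and 42.4 and 29.9 CPM in YM, a log2 fold change of -1.12 (SE 0.24, edgeR adjusted p = 0.009). These 3 fell by more than 2-fold. MRPL17 was at 48.5 and 62.2 CPM in YPD and 30.3 and 25.7 CPM in YM, with a log2 fold change of -0.99 (SE 0.22, edgeR adjusted p = 0.010). MRPL35 was at 57.1 and 60.6 CPM in YPD and 33.2 and 33 CPM in YM, with a log2 fold change of -0.83 (SE 0.22, edgeR adjusted p = 0.021). Its libraries were the most alike within each medium. MRPL8, named as the remaining one of the 6 after its values were seen, was at 85.4 and 76.7 CPM in YPD and 58.1 and 36.1 CPM in YM, a log2 fold change of -0.78 (SE 0.22, edgeR adjusted p = 0.029).

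The sizes of these changes depended in part on single libraries. Without the higher-numbered petite library in YM, the log2 fold change was -0.87 for MRPL50 and MRPL17 and -0.89 for MRPL37 and MRPL13. It was -0.83 for MRPL35 and -0.48 for MRPL8. MRPL35 moved little, between -0.87 and -0.79 over the 16 fits without 1 library. A fit without a compared library leaves 1 in its group, so fewer genes of any kind can pass, and counts from such fits are not read. In a fit of the 4 libraries alone 0 members passed, with the share of all genes not given. With the series of cultures as a replicate block 10 did (background 29.2%). The same YM libraries of petite yeast also enter the comparison with grande yeast.

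**Figure D5:**
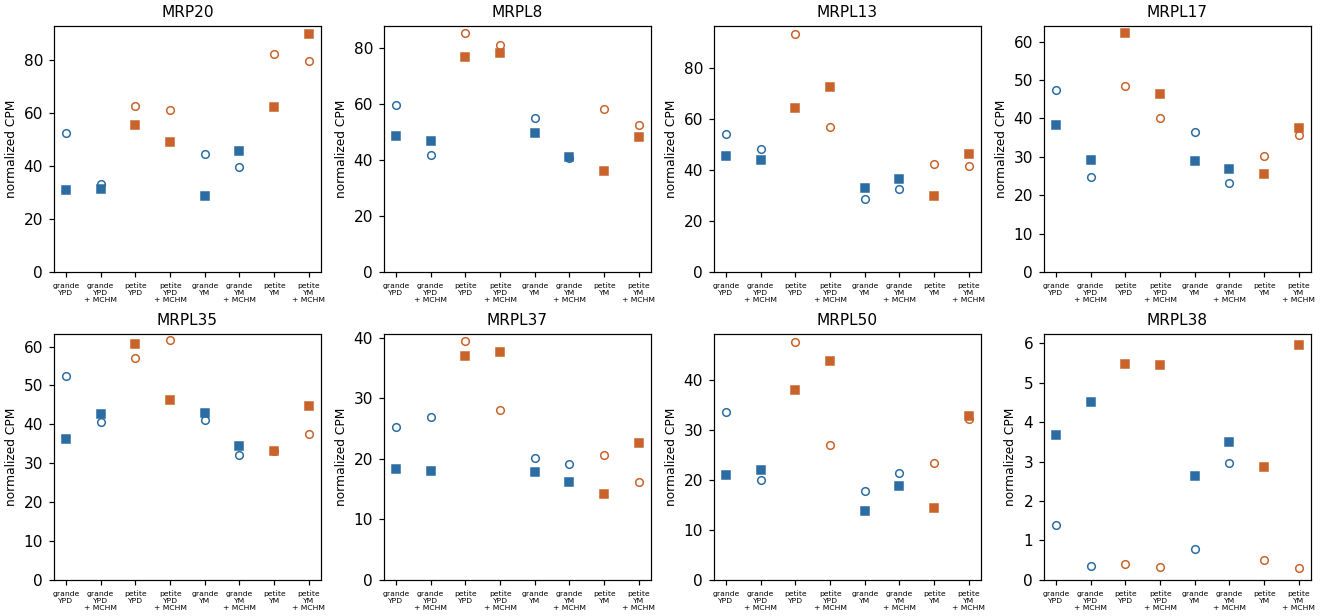
Normalized CPM (y axis, from 0) of the 7 members that passed the main edgeR test, fitted without a replicate block, and of MRPL38, in each library of the 8 groups. Open circles are the lower-numbered and filled squares the higher-numbered culture, blue grande and orange petite yeast. MRP20 reaches its highest values in petite yeast in YM; MRPL8, MRPL13 and MRPL37 are highest in petite yeast in YPD, and the open circles of MRPL38 lie below its squares in every group.

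In the other comparisons of media 0 members passed edgeR's test. In grande yeast without MCHM, 13 of 47 were positive in YM (49.5% of all genes), with a median of -0.25. The background of the adjusted test was 2.78%, and 6 members were lower and 1 higher at an unadjusted p under 0.05. Without overlap, 4 were higher and 11 lower (all genes 20.9% and 22.3%). DESeq2 called 0 there, and the median differed by -0.35 and -0.28 in the lower and higher series. MRPL4 (YLR439W, L29) was the 1 member higher at an unadjusted p under 0.05, at 42.3 and 48.5 CPM in YM and 26.2 and 23.9 CPM in YPD (log2 0.85, SE 0.29, edgeR adjusted p = 0.149). It was named after its values were seen, and its level followed the culture series in all 8 groups. It passed with the series of cultures as a replicate block (edgeR adjusted p = 0.026, background 7.84%). With MCHM, 21 of 47 were positive in grande yeast (52.2% of all genes), with a median of -0.02. The background of the adjusted test was 0.427%, and 1 member was higher at an unadjusted p under 0.05. Without overlap, 8 were higher and 8 lower (all genes 24.7% and 22.1%). In petite yeast with MCHM, 12 were positive (54% of all genes), with a median of -0.15. The background of the adjusted test was 6.51%, and 5 members were lower and 1 higher at an unadjusted p under 0.05. Without overlap, 4 were higher and 18 lower (all genes 31.6% and 25.5%). There 1 member, MRPL8, passed as lower with that block (background 15%). DESeq2 called 0 in both, and the median differed by 0.09 and 0.02 in grande and by -0.17 and -0.18 in petite yeast in the lower and higher series. The medium therefore went with a lower members' median without MCHM in both strains, and with values nearer to 0 with MCHM.

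The respiratory chain genes were on the other side again. Their median for YM against YPD without MCHM was 0.38 in grande and 0.85 in petite yeast. Cytosolic ribosomal protein genes had medians of -0.26 and -1.13, with 93 of 137 lower in petite yeast. Among the members, those without a bacterial counterpart had a median of -0.48 in petite yeast and those with one -0.34.

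Whether the responses differed was tested as a difference between comparisons in the same fit. Of the members, 0 passed in any of the 5 differences by edgeR's quasi-likelihood test, and DESeq2 called 0. The background was 0% in grande and 0.461% in petite yeast for the MCHM response in YM less that in YPD, 0% in YPD and 0.0171% in YM for that of petite less that of grande yeast, and 0.529% for the petite-grande difference in YM less that in YPD. For the first of these, the members' median was 0.27 in grande and 0.21 in petite yeast, with 1 and 2 members higher at an unadjusted p under 0.05. For the MCHM response of petite less that of grande yeast it was 0.26 in YPD and 0.22 in YM, with 0 and 1 higher unadjusted. For the petite-grande difference in YM less that in YPD it was -0.23, with 3 lower unadjusted. MRPL35 had the smallest adjusted p there (log2 -0.76, SE 0.31, edgeR adjusted p = 0.267). A dependence of the strain difference or of the MCHM response on medium or strain was thus not detectable in single members at this depth and with 2 libraries a group.

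The subunits and the origin classes were close in some comparisons and apart in others, with no test between them. For petite against grande yeast in YPD with MCHM, the median was 0.60 in large and 0.52 in small subunit members, and 0.56 and 0.60 in members with and without a bacterial counterpart. In YM without MCHM the corresponding values were 0.05 and 0.33, and 0.20 and -0.05. The span between quartiles of the members in YPD with MCHM was 0.32 on the log2 scale against 0.58 over all genes, and in YM with MCHM 0.34 against 0.82.

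The motif shown above was also carried by genes outside the set. For petite against grande yeast in YPD with MCHM, the median log2 fold change was 0.11 over 780 other genes with the motif within 200 bases of the stop codon and -0.05 over 4830 without it. In YM without MCHM the medians were 0.15 and 0.06, in YPD without MCHM 0.07 and -0.01, and in YM with MCHM 0.07 and -0.03. The 780 genes lay between the genes without the motif and the members in these comparisons except in YM without MCHM, where the members' median was 0.13. Only the members were taken out of the 780. The other proteins of the mitochondrial ribosome (29 of 30 with the motif) and the translation factors and tRNA synthetases (25 of 30) were not. These values are descriptions and were not tested.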

How the data were processed

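RNA from 16 libraries (8 groups of 2) was sequenced by the authors as unstranded TruSeq paired-end libraries on an Illumina MiSeq. Per the study's methods, reads were counted per gene with Rsubread, and the deposited values are raw counts without normalization. The submitters' processing notes name CASAVA 1.7, TopHat2 2.0.12, DESeq2 1.8.1 and the builds R64 and sacCer3. A deposited table of the authors' own DESeq2 fold changes and p-values was not used. Columns were assigned to groups by name, and all 16 were used. Columns hold no replicate number of the labels but a culture number, which pairs treated and untreated libraries because each culture was split. Deviations from the group means correlated at 0.335 to 0.522 across genes in the 4 such pairs and at a median of 0.453 over all 28 pairs of groups, with a lowest value of 0.026. Each group has a lower- and a higher-numbered culture, and these made up the series used as a further block.

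Counts of 6717 genes were filtered with filterByExpr (minimum count 10, minimum total 15), scaled by TMM and fitted with edgeR 4.0.16 (R 4.3.3) as 1 mean per group over 16 libraries. The quasi-likelihood test was adjusted by Benjamini-Hochberg over 5856 genes, and a gene passed at an adjusted p under 0.05 at any fold. There were 12 comparisons and 5 differences. Log2 fold changes use a prior count of 0.125, and CPM on the log2 scale has 0.5 added. DESeq2 1.42.0 and other alternatives are given in the closing section. The test was run on simulated data. Symbols, positions and sequence come from RefSeq's R64 annotation, which gave a symbol to 6025 identifiers. With 2 libraries a group no permutation test can give a small p-value.

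The named members are the 5 with the largest change among those that passed without overlap in each comparison, and the 3 highest and 3 lowest per kb. Any whose interval overlaps another RefSeq gene are named too. MRPS35, MRPL4, MRPL22, MRPL40, MRPL3 and MRPL8 in some comparisons fall outside this rule and were named after their values or sequences were seen. The members, the lists and this rule were chosen with earlier results of these data known. Reads of TruSeq libraries hold no molecular identifiers, so counts include PCR copies.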

Additional observations from a re-analysis of the deposited data

How the results depend on the processing

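Of 198 alternative values for the counts of members that passed and for the members' medians, other than fits without 1 library, 181 stayed within 1.5 times the count or 1 SD between libraries, and 17 did not. In most comparisons the main count was 0, and a count that stayed at 0 was taken as the same. A bound of 2-fold, or leaving out members, could give only 0 there. Part of the 181 was therefore fixed in advance, and the tally is no measure of how stable the calls were. With the series of cultures as a replicate block, 1 member passed for MCHM in grande yeast in YPD (MRPS35), 2 for petite against grande yeast in YM, 1 in YPD with MCHM (MRPL8), 3 in YM with MCHM, 1 for YM against YPD in grande yeast without MCHM (MRPL4), 10 in petite yeast without MCHM and 1 in petite yeast with MCHM (MRPL8). With the culture as a replicate block 0 members passed in the 4 MCHM comparisons and 4 differences between them, as without it. In fits of the compared groups alone, 0 members passed for petite against grande yeast in YM and 0 for YM against YPD in petite yeast without MCHM. With a bound of 2-fold these counts were 0 and 3. DESeq2 called 1 member for petite against grande yeast in YPD with MCHM and 1 in YM with MCHM. With library size alone 1 passed in YM with MCHM, and 3 passed for YM against YPD in petite yeast without MCHM (MRPL50, MRPL37 and MRPL8 did not), and the medians were 0.74 for petite against grande yeast in YM with MCHM and -0.48 for YM against YPD in grande yeast without MCHM. The median for MCHM in petite yeast in YPD was 0.02 with no filter on low counts, against -0.07. Leaving out MRPL38 and MRPL51, chosen after seeing the data, changed no count, as neither had passed in any comparison.

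Over the 16 fits without 1 library, the count was between 0 and 7 for YM against YPD in petite yeast without MCHM, between 0 and 1 for petite against grande yeast in YM without and with MCHM, and 0 in all others. Medians were between -0.31 and -0.06, -0.11 and 0.12, -0.24 and -0.01, and 0.07 and 0.41 for MCHM in grande YPD, petite YPD, grande YM and petite YM. For petite against grande yeast they were between 0.20 and 0.54 in YPD, -0.04 and 0.27 in YM, 0.50 and 0.69 in YPD with MCHM, and 0.24 and 0.55 in YM with MCHM. For YM against YPD they were between -0.34 and -0.05 in grande, -0.55 and -0.28 in petite, -0.06 and 0.04 in grande with MCHM, and -0.28 and -0.07 in petite yeast with MCHM. MRP20 was between 0.65 and 1.22, and the 6 members lower in YM kept a negative log2 fold change in all 16.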
